A study of Eucalyptus urophylla with 24 samples.

Results

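Leaf maturation was compared between triploid and diploid *Eucalyptus urophylla*, a hardwood tree grown in plantations. The members are the 12 young and mature leaf samples, out of 24 samples in the series, which also holds terminal buds and senescent leaves. They form 4 groups of 3 RNA sequencing libraries: young leaves of the diploid (code EU18), mature leaves of the diploid, young leaves of the triploid (code EU17) and mature leaves of the triploid. The labels call the young leaves juvenile. The triploid had been obtained by sexual polyploidization and the diploid served as its control. For its chlorophyll measurement the study took young leaves from shoot tips and mature leaves that were fully expanded. For sequencing it names the leaf stages only. No treatment or transgene is named in the labels. Leaf ages are not given, nor whether the 3 libraries of a group came from separate clones or trees. The p-values cover only the spread from library to library, which may be technical, and the effect of ploidy cannot be told apart from that of any other trait in which the plants differ. The members were chosen by their labels, with no measured value in the rule, though earlier results of these data were known.

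A leaf leaving the shoot tip stops dividing its cells, expands, completes its chloroplasts, thickens the walls of its veins and fibres, and becomes a source of sugar. Genes of the cell cycle, of ribosomes and of wall loosening usually decline over this course, while those of photosynthesis, water transport and wall thickening rise. The quantity described here is the interaction: the log2 change from young to mature leaf in the triploid minus that in the diploid. It is positive where a gene rose more, or fell less, in the triploid, and negative in the reverse case. Levels are FPKM (fragments per kilobase of transcript, corrected for sequencing depth) divided by a factor for each library, called scaled FPKM below. Differences are on the log2(FPKM + 1) scale, which draws in the changes of low genes. In bulk leaves, fewer cells of a type and less RNA per cell cannot be told apart.

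The total count of a library was 41525859 to 64400745. Within groups, diploid young leaf libraries 1 and 3 stood apart, with an SD of log2 deviations from the group mean of 0.246 and 0.231, against 0.131 to 0.199 in the other 10 leaf libraries. These 2 libraries deviated in opposite directions along transcript length, as given below. No pair of libraries of a group agreed within counting noise. The labelled tissue was checked by its light-harvesting proteins, whose summed scaled FPKM was 11487 to 14696 in diploid young leaves, 25931 to 28004 in diploid mature leaves, 14289 to 14669 in triploid young leaves and 21951 to 25942 in triploid mature leaves. The summed scaled FPKM of the shoot meristem markers (7 genes) was 109.7 to 136 in diploid young leaves, 117 to 135 in diploid mature leaves, 115 to 119 in triploid young leaves and 146 to 170.2 in triploid mature leaves. Of 6 tested, 2 were called more positive and 1 more negative, against 22.5% and 24.5% of all genes tested.

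A different course of maturation in the 2 ploidies was called for nearly as many genes as were not called. Of 19174 genes tested with limma, 9015 were called at an adjusted p under 0.05 (47.0%). The change was more positive in the triploid for 4316 genes (22.5%) and more negative for 4699 (24.5%). A log2 difference of at least 1 was reached by 1220 of the former (6.36% of genes tested) and 2210 of the latter (11.5%). The scaling sets the split: as deposited, without scaling, 6687 genes were called more positive and 3118 more negative, and the median over all genes was 0.25 in place of −0.00. All differences below are relative to that shift. The changes themselves were common in both plants. In the triploid 6239 genes rose (32.5%) and 7055 fell (36.8%), and in the diploid 6178 rose (32.2%) and 7295 fell (38.0%).

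Opposite changes were the smaller share of these differences. Among the 9015 genes, 1264 rose in both plants but less in the triploid, and 798 rose more in the triploid. A further 825 fell in both and more in the triploid, and 805 fell less in the triploid. A change was called in 1 plant alone for 1033 genes that rose and 1026 that fell in the triploid, and for 1018 that rose and 1121 that fell in the diploid. Opposite changes were called for 499 genes that rose in the triploid and fell in the diploid and for 529 with the reverse course. The former number was 759 without diploid young leaf library 1 and 329 without library 3. Among the called genes the ploidies differed more often in mature than in young leaves, as they did over all genes tested. Of the 4316 genes more positive in the triploid, 3092 differed between ploidies in mature leaves alone and 402 in young leaves alone. Of the 4699 more negative, 3373 did so in mature and 355 in young leaves alone. Over all 19174 genes tested, 5771 were higher and 6486 lower in the triploid in mature leaves. In young leaves 2037 were higher and 2437 lower.

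**Figure D1:**
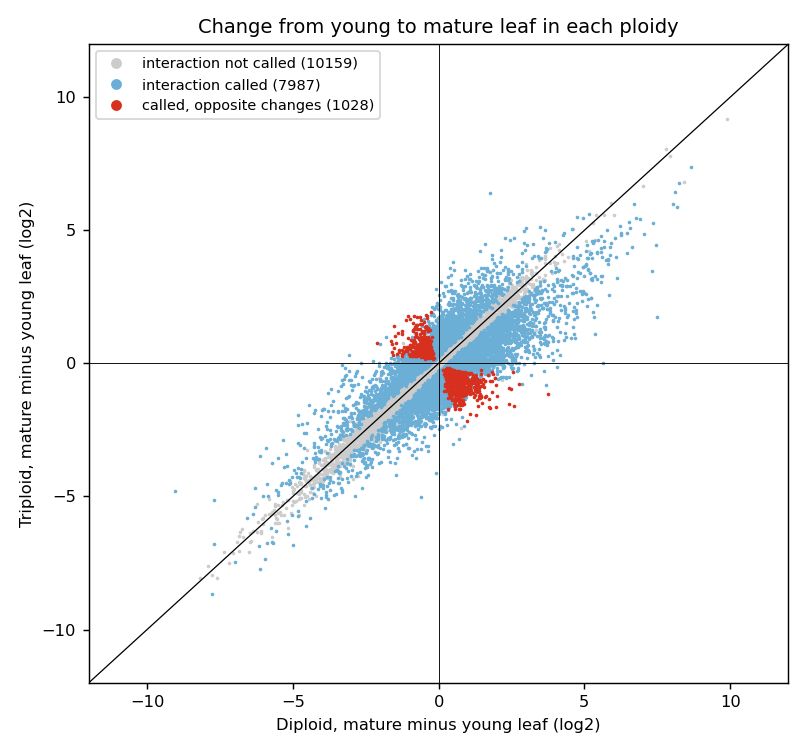
Change from young to mature leaf of 19174 genes in the diploid (x axis, log2) and the triploid (y axis, log2), with the line of equal change. Genes whose interaction was called lie off the line, and the 499 and 529 genes with opposite changes lie in the upper left and lower right of the plot.

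Transcript length moved with the interaction, and touches every list below. Length here is that implied by the deposited counts and FPKM. Across genes, which are no independent replicates, Spearman's rho between length and interaction was 0.45. Between length and the ploidy difference, rho was 0.52 in mature leaves and 0.18 in young leaves. The median interaction was −0.46 over 1683 genes under 750 bases, −0.58 from 750 to 1000 bases, −0.04 from 1500 to 2000 bases and 0.63 over 2263 genes above 3000 bases. Genes above 3000 bases were called more positive in 59.8% of cases and more negative in 4.86%. The same axis separated libraries of one group. For genes above 3000 bases, the median deviation from the mean of the 24 libraries was −0.25, 0.09 and 0.36 in diploid young leaves 1 to 3. It was −0.31, −0.31 and −0.48 in diploid mature leaves. In the triploid it was 0.26, 0.35 and 0.20 in young leaves and 0.45, 0.53 and 0.50 in mature leaves. A smooth trend on length was therefore taken out of each library in an alternative fit, and a trend on length and level together in another. The first called 17.7% of genes more positive and 22.5% more negative, and the second 19.5% and 19.0%. Both alternatives were added after the data were seen, and they also remove any change that short or abundant genes truly share. What part length had in the differences was not tested. With diploid young leaf library 2 alone in its group, assumed to vary like the other groups, 7832 genes were called. The more negative calls were then 20 of 20 photosystem subunits, 83 of 110 cytosolic ribosomal proteins, 17 of 20 histones and 12 of 22 aquaporins, and 24 of 47 WRKY factors were more positive.

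**Figure D2:**
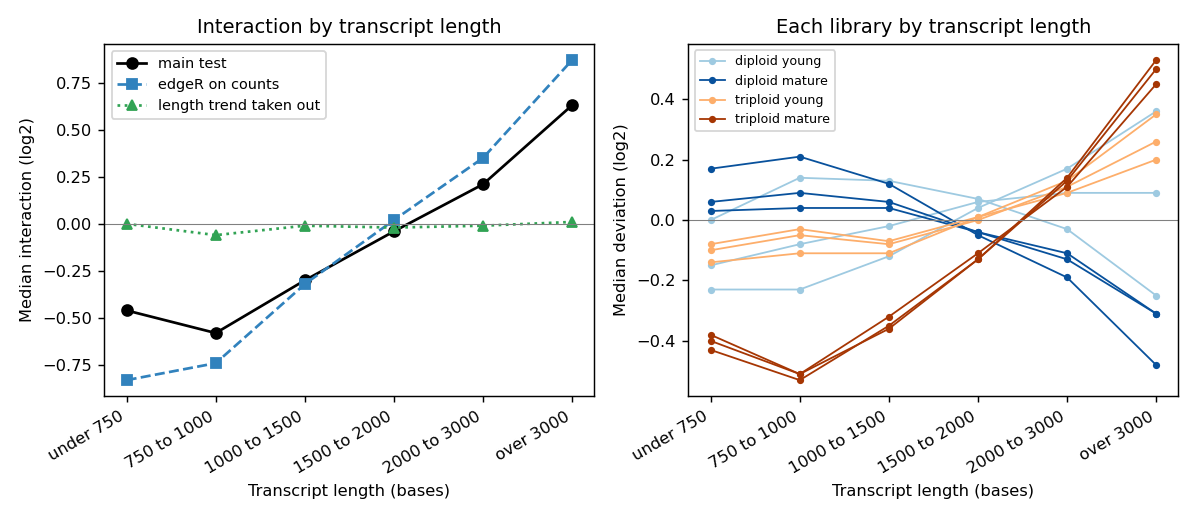
Left, median interaction (log2) in 6 classes of transcript length by the main test, by edgeR on counts and after the length trend was taken out. Right, median log2 deviation of each of the 12 libraries from the mean of the 24 libraries in the same classes. The median interaction runs from −0.58 at 750 to 1000 bases to 0.63 above 3000 bases, and the triploid and diploid mature leaf libraries slope in opposite directions.

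Several genes of the secondary wall, the cellulose and xylan layer laid down inside xylem vessels and fibres, rose sharply in the diploid and less or not at all in the triploid. Cellulose synthase A 8 (Eucgr.D00476, chromosome 4, 8844797 to 8851642), a subunit of the enzyme that spins secondary wall cellulose, had scaled FPKM values of 4.16, 4.12 and 3.64 in diploid young leaves, 69.2, 77.8 and 71.7 in diploid mature leaves, 7.75, 10 and 7.94 in triploid young leaves and 17.2, 19 and 17.9 in triploid mature leaves. Diploid mature leaves stood above all other libraries, and no groups overlapped. The log2 change was 3.89 in the diploid (adjusted p = 5.4e-14) and 1.0 in the triploid (adjusted p = 7e-05), an interaction of −2.89 ± 0.26 (SE, adjusted p = 5.9e-08). Chitinase-like protein 2 (Eucgr.H04034, chromosome 8, 54843289 to 54845650), whose Arabidopsis relative acts in cellulose deposition, had 37, 32.3 and 19.3 in diploid young leaves, 722, 787 and 742 in diploid mature leaves, 57.7, 60.9 and 58.5 in triploid young leaves and 119, 121 and 110.1 in triploid mature leaves. Its diploid mature libraries lay above every triploid library, and the interaction was −3.70 ± 0.34 (SE, adjusted p = 7.6e-08). IRX15-LIKE (Eucgr.H02217, chromosome 8, 28041724 to 28042952), a xylan synthesis protein in Arabidopsis, had 4.31, 3.56 and 1.51 in diploid young leaves, 90.3, 90.6 and 92.1 in diploid mature leaves, 6.73, 7.68 and 7.07 in triploid young leaves and 14.8, 14.1 and 15.2 in triploid mature leaves. Again the groups did not overlap, and the interaction was −3.60 ± 0.39 (SE, adjusted p = 5.6e-07).

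Laccase-4 (Eucgr.G03028, chromosome 7, 51504933 to 51508732), an oxidase that polymerises lignin, had 0.615, 0.33 and 0 in diploid young leaves, 36.5, 38.8 and 37.9 in diploid mature leaves, 0.477, 0.79 and 0.629 in triploid young leaves and 7.19, 7.25 and 7.09 in triploid mature leaves scaled FPKM. It was under 1 in all young leaves and rose in both plants, with an interaction of −2.58 ± 0.27 (SE, adjusted p = 3.9e-07). WVD2-like 3 (Eucgr.H03155, chromosome 8, 44930014 to 44933122), of a family of microtubule-binding proteins, had the largest difference among named genes that rose less in the triploid. Its scaled FPKM went from 0.943 ± 0.882 to 72.7 ± 5.31 in the diploid and from 2.78 ± 0.441 to 7.06 ± 0.711 in the triploid (SD, n = 3), with an interaction of −4.26 ± 0.47 (SE, adjusted p = 7.4e-07). The row carries several descriptions and may hold more than 1 gene. IRX15 itself (Eucgr.H02189) went from 0.363 ± 0.0522 to 6.83 ± 0.0559 in the diploid and from 0.568 ± 0.139 to 0.694 ± 0.296 in the triploid, with an interaction of −2.42. NAC domain-containing protein 73 (Eucgr.E03226), which regulates secondary wall genes in Arabidopsis, went from 4.51 ± 1.73 to 14.4 ± 1.87 in the diploid and from 4.85 ± 0.254 to 3.66 ± 0.484 in the triploid, with an interaction of −1.86. A further NAC73 gene (Eucgr.K01061) rose in the diploid (log2 0.69) and fell in the triploid (log2 −1.06). NAC43 (Eucgr.E01053), a switch for wall thickening in Arabidopsis fibres, went from 0.353 ± 0.117 to 11 ± 0.286 in the diploid and from 0.119 ± 0.0326 to 3.65 ± 0.405 in the triploid. Its interaction was −1.10 by limma and 0.02 by edgeR on counts, so its direction rests on the scale. With the length trend taken out, the interactions of cellulose synthase A 8, chitinase-like 2, IRX15-LIKE and laccase-4 were −3.45, −3.53, −3.32 and −2.73.

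The whole lignin and secondary wall list did not move one way. Of 98 tested members, 32 were more positive in the triploid and 26 more negative, against 22.5% and 24.5% of all genes, and the median was 0.10 beside −0.00. The list holds lignin and primary wall enzymes too. Shikimate O-hydroxycinnamoyltransferase Eucgr.J03197, of the branch to lignin and chlorogenic acids, went from 1.5 ± 0.297 to 1.68 ± 0.666 in the diploid and from 0.598 ± 0.0852 to 12.5 ± 2.95 in the triploid, an interaction of 2.98 ± 0.29 (SE, adjusted p = 1.3e-07). A pair of laccase-9 genes fell less in the triploid, with 2.22 (Eucgr.F02646) and 1.82 (Eucgr.H02579). The 3 genes described as cellulose synthase A 4 gave 1.24 (Eucgr.E00821), 1.25 (Eucgr.E00819) and 0.07 (Eucgr.E00820, adjusted p = 0.82). Near copies such as these may have shared reads in the counting. Of the xylem and fibre markers, 9 of 11 were tested, with 2 more positive and 3 more negative, a median of −0.54 by limma and 0.02 by edgeR. Their summed scaled FPKM was 65.4 to 94.5 in diploid young leaves, 119 to 130.1 in diploid mature leaves, 74.9 to 93.8 in triploid young leaves and 90.4 to 103 in triploid mature leaves. A partial cellulose synthase A 7 gene (Eucgr.H00185) was listed at 0 in mature leaves of both plants. What part the number of xylem and fibre cells had was not tested.

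**Figure D3:**
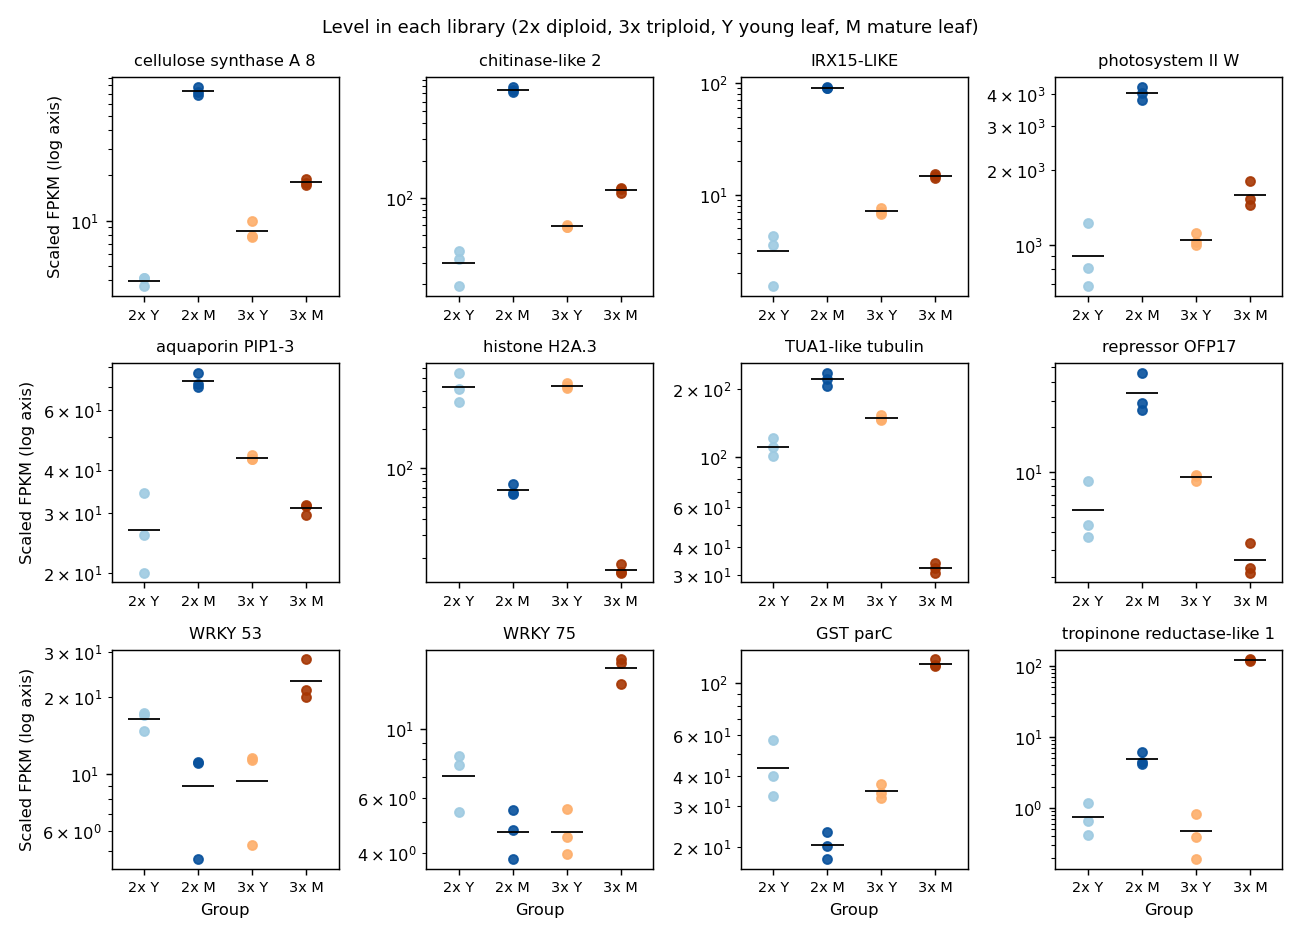
Scaled FPKM (log axis) of 12 genes in each of the 12 libraries, with a bar at each group mean. Diploid mature leaves stand highest for cellulose synthase A 8, chitinase-like 2 and IRX15-LIKE, and triploid mature leaves stand highest for WRKY 53, WRKY 75, the glutathione S-transferase parC and tropinone reductase-like 1.

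Veins also carry phloem. Among the phloem markers 19 of 25 were tested, and 0 were more positive and 8 more negative, against 22.5% and 24.5% of all genes. In young leaves 11 of the tested markers were higher in the triploid and 1 lower, and in mature leaves 5 were higher and 6 lower. Of all 19174 genes tested, 2037 were higher and 2437 lower in young leaves, and 5771 and 6486 in mature leaves. The summed scaled FPKM of the phloem markers was 112 to 129.6 in diploid young leaves, 1445 to 2081 in diploid mature leaves, 187 to 211 in triploid young leaves and 459.7 to 485 in triploid mature leaves. In mature leaves most of that sum, and in young leaves a minor part, is PHLOEM PROTEIN 2-LIKE A1 (Eucgr.J02719), a lectin of sieve elements, which went from 31.6 ± 9.18 to 1554 ± 357 in the diploid and from 20.3 ± 1.85 to 384 ± 11.4 in the triploid, an interaction of −1.41 ± 0.29 (SE, adjusted p = 0.00054) that was not called with length and level taken out. APL (Eucgr.F04475), the factor that specifies phloem and a member of the EgrGLK family, rose in both plants, with −1.22 ± 0.32 (SE, adjusted p = 0.0035). Stomatal lineage markers were called more negative in 5 of 7 and more positive in 1, and in 2 and 1 with length taken out, at a median length of 734 bases. Unlike the list's sum, FAMA (Eucgr.H02788), which sets guard cell fate, rose in both plants, from 8.71 ± 1.12 to 36.5 ± 8.27 in the diploid and from 9.38 ± 0.65 to 14.3 ± 1.14 in the triploid, with an interaction of −1.37 ± 0.23 (SE, adjusted p = 7.9e-05). The summed scaled FPKM of the stomatal list was 70.8 to 92.2 in diploid young leaves, 38.3 to 53.2 in diploid mature leaves, 71.6 to 75.1 in triploid young leaves and 16.6 to 19.5 in triploid mature leaves. Triploid mature leaves had the lowest sums. What part the number of phloem or guard cells had was not tested.

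Photosystem subunits, which capture light energy in the thylakoid membrane, rose in both plants and less in the triploid. Of 20 tested, 19 rose in the diploid, and 17 rose and 2 fell in the triploid. All 20 tested members gave a negative interaction, 19 of them called, against 24.5% of all genes, and the median was −0.80. Their median change was 0.60 in the triploid and 1.41 in the diploid. At the mature stage 19 of the 20 were lower in the triploid, against 0 at the young stage. Of all 19174 genes tested, 6486 were lower in the triploid at the mature stage and 2437 at the young stage. The photosystem II reaction center W protein (Eucgr.B01493, chromosome 2, 24240974 to 24242130), a small subunit of the dimer, had 1219, 809.7 and 682 in diploid young leaves, 4054, 3794 and 4280.5 in diploid mature leaves, 1030.2, 1002 and 1115 in triploid young leaves and 1798, 1447 and 1521 in triploid mature leaves scaled FPKM. Diploid mature leaves lay highest, and both groups of young leaves overlapped. The interaction was −1.61 ± 0.29 (SE, adjusted p = 0.00017). The repair protein PSB27-H1 (Eucgr.K00947) rose in the diploid (log2 1.06) and fell in the triploid (log2 −0.34, adjusted p = 0.043), but its interaction of −1.40 was −0.13 and not called with length and level taken out. These genes are short, with a median length of 1234 bases, and abundant, at a median of 1012 FPKM. With length taken out the list gave 0 more positive and 15 more negative, median −0.62. With length and level taken out it gave 4 and 4, median −0.15.

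The rest of the photosynthetic apparatus moved less evenly. Light-harvesting proteins, the antenna that binds chlorophyll, gave 6 more negative and 2 more positive of 16, against 24.5% and 22.5% of all genes. Their median was −0.32 after scaling and 0.02 without it. With length taken out the list gave 3 more positive and 5 more negative, median −0.07, and with length and level it turned to 6 more positive and 1 more negative, median 0.20. CP24 (Eucgr.G00777), a minor antenna protein, went from 551 ± 90 to 1388 ± 61.9 in the diploid and from 487 ± 8.5 to 604 ± 58.8 in the triploid, an interaction of −1.04 ± 0.16 (SE, adjusted p = 2.9e-05). Another CP24 gene (Eucgr.I02677) went from 348 ± 61.4 to 718 ± 23.6 in the diploid and from 437 ± 17.8 to 661 ± 62.8 in the triploid. Its interaction was −0.46 ± 0.16 (SE, adjusted p = 0.02), not called by edgeR, and −0.13 with length taken out. An LHCII type 1 gene (Eucgr.D00320) went from 169 ± 23.8 to 96.4 ± 10.4 in the diploid and from 300.1 ± 7.59 to 295 ± 30.1 in the triploid, an interaction of 0.77 ± 0.20 (SE, adjusted p = 0.0037). Carbon fixation enzymes split into 6 more positive and 5 more negative of 23. Copies of 1 enzyme differed. For transketolase, of the Calvin cycle, Eucgr.D02466 had 1.03, while the copy with the higher level in mature leaves, Eucgr.D02467, had −0.04 (adjusted p = 0.82). For fructose-1,6-bisphosphatase, of the same cycle, Eucgr.B02755 had −0.79 and Eucgr.B02757 0.29 (adjusted p = 0.041).

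Chlorophyll synthesis gave 7 more positive and 2 more negative of 20, against 22.5% and 24.5% of all genes. The median was 0.18, and by edgeR the list gave 7 and 2, median 0.27. With length taken out it gave 3 more positive and 3 more negative, median 0.12. With length and level taken out it gave 7 more positive and 3 more negative, median 0.25. Protochlorophyllide reductase (Eucgr.F01098, chromosome 6, 15032283 to 15034676), the light-dependent step, had a scaled FPKM that went from 89.3 ± 2.79 to 55.8 ± 4.41 in the diploid and from 121 ± 2.85 to 176 ± 11.1 in the triploid. It rose in the triploid (log2 0.53, adjusted p = 2.5e-05) and fell in the diploid (log2 −0.67, adjusted p = 1.3e-06), with no overlap between groups and an interaction of 1.20 ± 0.13 (SE, adjusted p = 5.3e-07). Another protochlorophyllide reductase gene (Eucgr.A01801) rose in both plants, from 75.4 ± 7.11 to 149 ± 2.95 in the diploid and from 69.6 ± 1.75 to 146 ± 4.98 in the triploid. Its interaction was 0.07 (adjusted p = 0.61). Delta-aminolevulinic acid dehydratase (Eucgr.F03796), an early step, had 0.67. Subunits of magnesium chelatase differed. A ChlI-like gene (Eucgr.D00547), with group means of 3.22 to 11.2 scaled FPKM, had −1.01. The ChlH gene (Eucgr.A02348), with group means of 91.4 to 295, had 0.65 (adjusted p = 0.0087), and −0.22 with length taken out. The ChlD gene (Eucgr.J00729) had 0.49 (adjusted p = 0.072). In chlorophyll breakdown, 3 of 10 were more positive and 3 more negative. A pair of neighbouring chlorophyllase-2 genes, enzymes that cut the tail off chlorophyll, fell in both plants with interactions of opposite sign. Eucgr.B01022 went from 41.4 ± 5.67 to 0.632 ± 0.216 in the diploid and from 34.4 ± 0.908 to 6.35 ± 0.598 in the triploid, an interaction of 2.43 ± 0.18 (SE, adjusted p = 2.9e-09), and Eucgr.B01021 went from 116 ± 13 to 62.3 ± 10.6 in the diploid and from 80.9 ± 0.294 to 16.4 ± 2.23 in the triploid, an interaction of −1.35 ± 0.18 (SE, adjusted p = 7.8e-06). They may share reads. STAY-GREEN (Eucgr.E00514), which removes magnesium from chlorophyll, rose less in the triploid, with −1.04.

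Genes of ribosomes, the machines of protein synthesis, fell in the triploid more often than in the diploid. Of 110 cytosolic ribosomal proteins, 85 were more negative in the triploid and 1 more positive, against 24.5% and 22.5% of all genes. The list's median was −0.86. In the triploid 106 fell from young to mature leaf and 0 rose, and in the diploid 49 fell and 1 rose. The 60S protein L27 (Eucgr.E02329) had 156, 103 and 90.3 in diploid young leaves, 129, 120.0 and 158 in diploid mature leaves, 225, 206 and 216 in triploid young leaves and 88.8, 63.4 and 72.9 in triploid mature leaves scaled FPKM. Triploid mature leaves lay lowest, below every other library, and the interaction was −1.77 ± 0.31 (SE, adjusted p = 0.00012), not called with length and level taken out. Of 35 plastid ribosomal proteins, 26 were more negative (74.3%) and 0 more positive, with a median of −0.66. Here 20 rose in the diploid and 8 fell, while in the triploid 2 rose and 18 fell. The plastid 50S protein 5 (Eucgr.A02181) had −1.29 ± 0.16 (SE, adjusted p = 2.1e-06). Both lists hold short, abundant transcripts, at median lengths of 1036 and 1086 bases. With length taken out the cytosolic list gave 1 more positive and 66 more negative, median −0.45, and the plastid list 0 more positive and 17 more negative, median −0.31. With length and level taken out they gave 29 and 21, median −0.00 for the cytosolic and 6 and 5, median −0.00 for the plastid list.

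**Figure D4:**
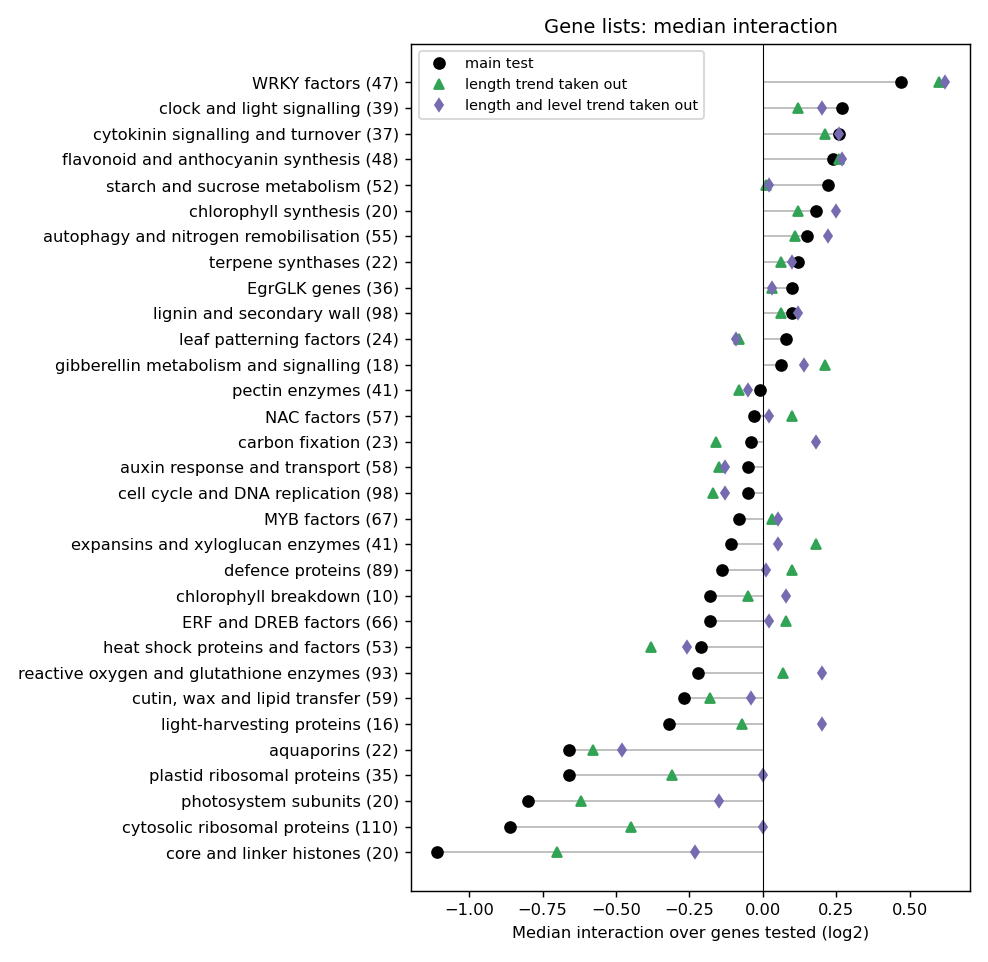
Median interaction (log2) over the tested genes of 31 lists (number tested in brackets) by the main test and by both alternatives that take out a trend. The median of cytosolic ribosomal proteins runs from −0.86 to −0.00 as trends are taken out, while aquaporins stay between −0.66 and −0.48 and WRKY factors between 0.47 and 0.62.

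Genes of dividing cells mostly fell in both plants. Of the histones, which package new DNA, 19 fell in the triploid and 17 in the diploid, and 14 fell in both and further in the triploid. In all, 17 of 20 were more negative and 0 more positive, against 24.5% and 22.5% of all genes. The median interaction was −1.11, with a median change of −2.83 in the triploid and −1.54 in the diploid. Histone H2A.3 (Eucgr.E03594, chromosome 5, 64575397 to 64576213) had 546, 413 and 329 in diploid young leaves, 75.7, 62.9 and 63.5 in diploid mature leaves, 434, 418 and 456 in triploid young leaves and 17.8, 15.5 and 15.4 in triploid mature leaves scaled FPKM. The young groups overlapped, and triploid mature leaves lay below diploid ones, an interaction of −2.04 ± 0.22 (SE, adjusted p = 4.3e-07). With length taken out the list gave 1 more positive and 14 more negative, median −0.70, and with length and level 2 and 8, median −0.23. The cell cycle and DNA replication list, of longer genes (median 2629 bases), fell in 74 and 81 of 98: 17 were more positive and 14 more negative, with a median of −0.05 by limma and 0.58 by edgeR. With length taken out it gave 10 more positive and 28 more negative, median −0.17. Kinesin-3 (Eucgr.F03419), a microtubule motor, fell further in the triploid, with −1.21 ± 0.19 (SE, adjusted p = 4.2e-05).

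Tubulins, the units of microtubules, were among the named genes of the whole table. An alpha tubulin (Eucgr.G01186, chromosome 7, 18128884 to 18131821) had 1249.9, 984 and 879.8 in diploid young leaves, 336, 344 and 440.0 in diploid mature leaves, 1404, 1329 and 1347 in triploid young leaves and 78.1, 70.6 and 70.4 in triploid mature leaves scaled FPKM, with all triploid mature libraries lowest and an interaction of −2.73 ± 0.37 (SE, adjusted p = 7.5e-06). The TUA1-like gene (Eucgr.F02183, chromosome 6, 33681676 to 33684434) had 121, 111 and 101 in diploid young leaves, 206, 221 and 235 in diploid mature leaves, 154, 146 and 148 in triploid young leaves and 34.1, 32.1 and 30.8 in triploid mature leaves. It rose in the diploid and fell in the triploid, no groups overlapped, and the interaction was −3.16 ± 0.31 (SE, adjusted p = 1.5e-07). Tubulin copies are near identical, and counting may have split their reads. At lengths of 2013 and 1920 bases, the values with length taken out were −2.83 and −3.22. Tetraspanin-10 (Eucgr.E00568), a membrane protein, and the aspartyl protease AED3 (Eucgr.G03227) also fell further in the triploid, with −2.15 and −2.74.

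Wall loosening showed no common direction. Among expansins and xyloglucan enzymes 9 of 41 were more positive and 12 more negative, against 22.5% and 24.5% of all genes. Expansin-A8 (Eucgr.J00120), which loosens walls in growing cells, went from 139 ± 7.35 to 44.3 ± 9.43 in the diploid and from 176 ± 1.18 to 157 ± 14.5 in the triploid, an interaction of 1.49 ± 0.29 (SE, adjusted p = 0.00032) that was not called by DESeq2. A xyloglucan endotransglucosylase (Eucgr.J01663) went the other way, from 77.7 ± 8.49 to 33.2 ± 5.41 in the diploid and from 70.2 ± 3.08 to 8.7 ± 6.19 in the triploid, with −1.85 ± 0.37 (SE, adjusted p = 0.00046). Pectin enzymes gave 7 and 11 of 41. Pectin acetylesterase 8 (Eucgr.E01170) rose in the diploid alone and went from 27.7 ± 2.15 to 113 ± 10.1 in the diploid and from 29.6 ± 3.96 to 26 ± 1.89 in the triploid, with −2.17 ± 0.19 (SE, adjusted p = 2.7e-08), though its row carries several descriptions. Pectate lyase 8 (Eucgr.H00093), which cuts pectin, fell less in the triploid, with 1.85. Of the leaf patterning factors 4 of 24 were more positive and 8 more negative, with a median of 0.08. With length taken out they gave 6 and 7, and with length and level 7 and 7. Growth-regulating factors 3 (Eucgr.A01534) and 8 (Eucgr.D01674), which promote cell division in leaves, fell further in the triploid, with −1.07 and −1.04, and TCP11 (Eucgr.A01143) fell in the triploid alone, with −1.50.

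Aquaporins, the channels that let water through membranes, rose in the diploid more often than in the triploid. Of 22 tested, 12 were more negative in the triploid and 2 more positive, 8 by at least 1 on the log2 scale in the negative direction, where the backgrounds were 24.5% and 11.5%. The median was −0.66, −0.39 without scaling, and −0.58 and −0.48 with trends taken out. In the diploid 13 rose and 6 fell, and in the triploid 8 and 8. PIP1-3 (Eucgr.K02993, chromosome 11, 37413316 to 37414990), a plasma membrane channel, had 34.4, 25.8 and 20.1 in diploid young leaves, 76.7, 71.5 and 69.9 in diploid mature leaves, 43.2, 43 and 44.3 in triploid young leaves and 31.7, 31.5 and 29.6 in triploid mature leaves scaled FPKM. Diploid mature leaves lay highest, and triploid mature leaves overlapped diploid young ones. It rose in the diploid (log2 1.44), while the triploid value was −0.48 (adjusted p = 0.24), and the interaction was −1.92 ± 0.51 (SE, adjusted p = 0.0041). TIP1-3 (Eucgr.J00051, chromosome 10, 767596 to 769210), a vacuolar channel, had 7.16, 6.54 and 4.18 in diploid young leaves, 18.1, 15.2 and 17.7 in diploid mature leaves, 10.1, 6.56 and 11.6 in triploid young leaves and 5.45, 5.88 and 4.52 in triploid mature leaves. It rose in the diploid (log2 1.39) and fell in the triploid (log2 −0.70), the young groups overlapped, as did triploid mature and diploid young leaves, and the interaction was −2.10 ± 0.24 (SE, adjusted p = 1.5e-06). NIP1-1 (Eucgr.E02836), of the family that also carries small solutes, went from 1.1 ± 0.386 to 19.1 ± 1.18 in the diploid and from 1.45 ± 0.119 to 4.26 ± 0.748 in the triploid, with −2.18 ± 0.33 (SE, adjusted p = 3e-05). PIP1-2 (Eucgr.G03037), the tested aquaporin with the highest mean in mature leaves of both plants, went from 304 ± 23 to 1068 ± 119 in the diploid and from 428 ± 6.38 to 784 ± 41.3 in the triploid, with −0.94 ± 0.13 (SE, adjusted p = 1.2e-05). In contrast, TIP4-3 (Eucgr.I01369) fell less in the triploid, with 1.01, and PIP2-7 (Eucgr.J00930) gave −0.05 (adjusted p = 0.89). Further genes described as PIP1-3 (Eucgr.D01836) and PIP1-2 (Eucgr.E00628) fell in both plants. Both fell further in the triploid, with −1.03 and −0.62, the latter not called by edgeR.

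WRKY factors, regulators of defence and senescence that bind the W box, rose in the triploid more often than in the diploid. Of 47 tested, 26 were more positive and 4 more negative, against 22.5% and 24.5% of all genes. The median was 0.47, 0.55 by edgeR, 0.60 with length and 0.62 with length and level taken out. In the triploid 27 rose and 11 fell, and in the diploid 14 and 15. In mature leaves 27 were higher in the triploid and 8 lower, and in young leaves 4 and 14. Of all 19174 genes tested, 5771 were higher and 6486 lower in mature leaves, and 2037 and 2437 in young leaves.

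WRKY 53 (Eucgr.D02359, chromosome 4, 36823599 to 36826031), a senescence regulator in Arabidopsis, had 14.8, 17.1 and 17.4 in diploid young leaves, 11.2, 4.67 and 11.1 in diploid mature leaves, 11.6, 11.4 and 5.28 in triploid young leaves and 20.1, 21.3 and 28.1 in triploid mature leaves scaled FPKM. Triploid mature leaves lay above all others, while diploid mature library 2 and triploid young library 3 lay low in their groups. The interaction was 2.15 ± 0.34 (SE, adjusted p = 4.9e-05). WRKY 75 (Eucgr.H03349, chromosome 8, 63986321 to 63988662), which promotes senescence and responds to phosphate in Arabidopsis, had 7.66, 8.16 and 5.38 in diploid young leaves, 4.71, 3.82 and 5.46 in diploid mature leaves, 5.52, 4.5 and 3.96 in triploid young leaves and 13.9, 16.3 and 16.7 in triploid mature leaves. Here too triploid mature leaves stood above the other groups, which overlapped, and the interaction was 2.06 ± 0.19 (SE, adjusted p = 6.7e-08). WRKY 47 (Eucgr.A01001) went from 14.1 ± 3.42 to 17.5 ± 2.06 in the diploid and from 7.77 ± 0.0332 to 40.1 ± 1.17 in the triploid, with 1.91 ± 0.21 (SE, adjusted p = 8.6e-07). WRKY 33 (Eucgr.K02940), which acts against fungi in Arabidopsis, had 1.74, and WRKY 15 (Eucgr.I00882) had 1.76, rising in the triploid (log2 0.50) and falling in the diploid (log2 −1.26). The 4 genes of the opposite direction were WRKY 12 (Eucgr.D01219, −1.84), which represses wall thickening in Arabidopsis pith, WRKY 32 (Eucgr.C00348, −0.92), WRKY 49 (Eucgr.K03115, −0.80) and WRKY 22 (Eucgr.E00098, −0.69). They were singled out after their values were seen.

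**Figure D5:**
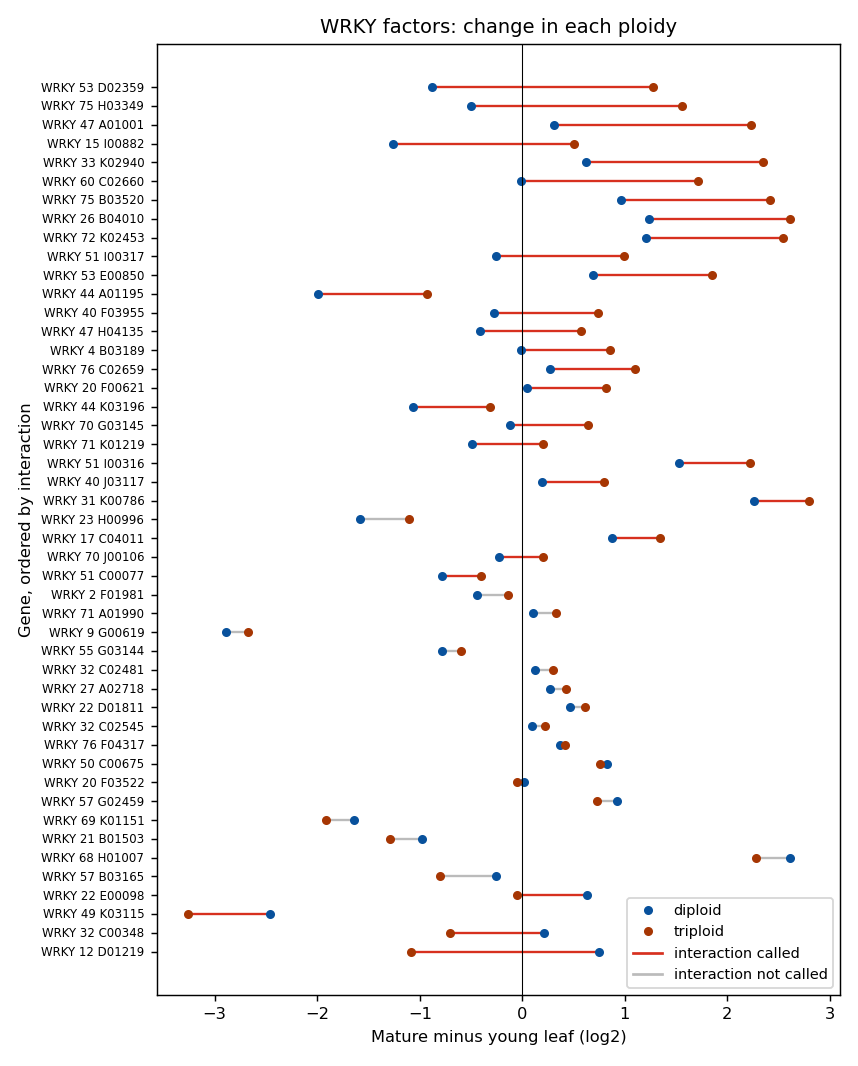
Change from young to mature leaf (log2) in the diploid and the triploid for the 47 tested WRKY factors, ordered by interaction. The triploid point lies to the right in the upper part of the plot, and red lines mark the 26 genes called more positive and the 4 called more negative.

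The naming rule gave 5 genes that rose in the triploid and fell in the diploid. The glutathione S-transferase parC (Eucgr.B02780, chromosome 1, 20458221 to 20459148), of a family that conjugates toxins, had 57.1, 40.1 and 33.1 in diploid young leaves, 23.1, 17.8 and 20.1 in diploid mature leaves, 32.4, 34.1 and 37.2 in triploid young leaves and 119, 126 and 118 in triploid mature leaves scaled FPKM. Triploid mature leaves lay highest and diploid mature leaves lowest, the young groups overlapped, and the interaction was 2.81 ± 0.21 (SE, adjusted p = 3.6e-09). Hevamine-A (Eucgr.K00311, chromosome 11, 2750623 to 2751714), a chitinase, had 31.8, 32.9 and 27.7 in diploid young leaves, 22, 17 and 15.4 in diploid mature leaves, 21.3, 22.4 and 19.1 in triploid young leaves and 76.5, 69.7 and 73.1 in triploid mature leaves. Triploid mature leaves lay highest, and diploid mature leaves overlapped triploid young ones. It rose in the triploid and fell in the diploid, and the interaction was 2.50 ± 0.18 (SE, adjusted p = 2e-09). DOWNY MILDEW RESISTANCE 6 (Eucgr.K00040, chromosome 11, 5421096 to 5424070), an oxygenase that lowers salicylic acid in Arabidopsis, went from 11.2 ± 2.35 to 5.36 ± 2.04 in the diploid and from 12.7 ± 2.39 to 42.2 ± 2.18 in the triploid, with 2.65 ± 0.38 (SE, adjusted p = 1.4e-05). Peroxidase 51 (Eucgr.J02352) went from 6.89 ± 1.19 to 2.61 ± 0.395 in the diploid and from 2.57 ± 0.486 to 9.93 ± 0.923 in the triploid, with 2.74 ± 0.23 (SE, adjusted p = 1.6e-08), and a beta-glucanase (Eucgr.B01155, several descriptions) had 2.63.

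As lists these functions were mixed, beside 22.5% more positive and 24.5% more negative among all genes. Defence proteins gave 14 more positive and 25 more negative of 89 (median −0.14, and 0.10 without scaling), and with length taken out 25 more positive and 22 more negative, median 0.10. Reactive oxygen and glutathione enzymes gave 21 and 26 of 93, and with length taken out 31 more positive and 16 more negative, median 0.07, against −0.22 before. The defensin Ec-AMP-D2 (Eucgr.B02620), an antimicrobial peptide, was called in the triploid alone and went from 163 ± 66.4 to 266 ± 106 in the diploid and from 319.7 ± 53.1 to 44.2 ± 7.31 in the triploid, with −3.53 ± 0.47 (SE, adjusted p = 6.7e-06). A thaumatin-like protein (Eucgr.I01898) rose in the diploid and fell in the triploid, with −2.77. A stress-response A/B barrel protein (Eucgr.J00434, chromosome 10, 4335072 to 4336022) had 457, 292 and 224 in diploid young leaves, 145, 152 and 391 in diploid mature leaves, 334, 236 and 314 in triploid young leaves and 9.28, 10 and 5.51 in triploid mature leaves scaled FPKM. It fell in the triploid alone, and diploid mature library 3 lay far above libraries 1 and 2, with an interaction of −4.42 ± 0.68 (SE, adjusted p = 3.2e-05). A barwin protein (Eucgr.B02122, several descriptions) was higher in the diploid at both stages and went from 157 ± 46.3 to 13 ± 2.25 in the diploid and from 2.64 ± 0.433 to 0.81 ± 0.389 in the triploid, with 2.44 ± 0.30 (SE, adjusted p = 3.3e-06).

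The steepest rise in the triploid among named genes that rose in both plants was that of tropinone reductase-like 1 (Eucgr.K01709, chromosome 11, 19274931 to 19276285), of a dehydrogenase family. It had 1.19, 0.413 and 0.664 in diploid young leaves, 6.08, 4.44 and 4.22 in diploid mature leaves, 0.194, 0.824 and 0.391 in triploid young leaves and 123, 117 and 121 in triploid mature leaves scaled FPKM. Triploid mature leaves exceeded every other library, the young groups overlapped, and the interaction was 4.63 ± 0.30 (SE, adjusted p = 6.3e-10). The 36.4 kDa proline-rich protein (Eucgr.C01388, chromosome 3, 24178030 to 24180250), had 1144, 1405 and 1265 in diploid young leaves, 0.83, 1.1 and 2.63 in diploid mature leaves, 1373, 1431 and 1343 in triploid young leaves and 50.7, 49 and 46.1 in triploid mature leaves. It fell in both plants, far less in the triploid, with an interaction of 4.24 ± 0.37 (SE, adjusted p = 3.1e-08). DAHP synthase (Eucgr.I00519), the entry to the shikimate pathway, fell less in the triploid too, from 462 ± 27.9 to 15.5 ± 0.983 in the diploid and from 398 ± 6.95 to 104 ± 6.15 in the triploid, with 2.88 ± 0.16 (SE, adjusted p = 1e-10). Serine carboxypeptidase-like 18 (Eucgr.C00146) had 2.76, phylloplanin (Eucgr.H03941), a surface protein, 2.72, and UDP-glucuronic acid decarboxylase 4 (Eucgr.H03936) 2.99. A second tropinone reductase homolog (Eucgr.J02019) differed more in young than in mature leaves and went from 62.5 ± 3.45 to 82.5 ± 8.87 in the diploid and from 0.159 ± 0.146 to 12.7 ± 0.667 in the triploid, with 3.18. Chloroplastic malate dehydrogenase (Eucgr.B00511) went from 10.1 ± 0.171 to 0.329 ± 0.0544 in the diploid and from 12.3 ± 0.566 to 15.4 ± 1.69 in the triploid, with 3.36 ± 1.04 (SE, adjusted p = 0.012), and was not called by DESeq2. Its SE and that of PIP1-3 exceed the spread of these leaf libraries, since the fit shares the spread of all 24. A haloacid dehalogenase-like hydrolase (Eucgr.D02150) had 3.32.

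Among genes that fell in the triploid and rose in the diploid, OFP17 (Eucgr.J01842, chromosome 10, 23709127 to 23709725), of a family of repressors that act on growth and organ shape, had 8.68, 4.41 and 3.69 in diploid young leaves, 28.9, 26.1 and 45.6 in diploid mature leaves, 8.75, 9.61 and 9.41 in triploid young leaves and 2.27, 3.36 and 2.13 in triploid mature leaves scaled FPKM. Diploid mature leaves lay highest and triploid mature leaves lowest, and the interaction was −3.95 ± 0.52 (SE, adjusted p = 5.9e-06). A lysosomal thiol reductase (Eucgr.A00606, chromosome 1, 15953904 to 15957960) had 65.2, 48.8 and 36.7 in diploid young leaves, 133, 127 and 121 in diploid mature leaves, 80.1, 79.2 and 78.9 in triploid young leaves and 27.1, 24.5 and 25.3 in triploid mature leaves. No groups overlapped, and the interaction was −2.95 ± 0.31 (SE, adjusted p = 4.2e-07). The WEB family protein Eucgr.I02753 had −3.33 and the ubiquitin ligase RDUF1 (Eucgr.G02496) −2.99. In the diploid alone a cytochrome b561 protein (Eucgr.H00499) rose and went from 1.3 ± 0.817 to 39 ± 3.89 in the diploid and from 2.35 ± 0.206 to 3.25 ± 0.752 in the triploid, with −3.85 ± 0.46 (SE, adjusted p = 2.1e-06). A gene described as a subunit of the chloroplast RNA polymerase (Eucgr.K01619) had −3.61, with a wide spread among its diploid libraries: 23.6, 20.6 and 6.11 in young and 175, 124 and 63.5 in mature leaves.

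Pigments and surface compounds differed by gene. Flavonoid and anthocyanin synthesis gave 19 more positive and 8 more negative of 48, against 22.5% and 24.5% of all genes, with a median of 0.24. With length taken out it gave 18 more positive and 9 more negative, median 0.26. Anthocyanidin 3-O-glucosyltransferase 5 (Eucgr.F01543), which attaches sugar to pigments, went from 15.2 ± 1.87 to 7.82 ± 0.962 in the diploid and from 6.48 ± 0.384 to 16.6 ± 1.68 in the triploid, with 2.11 ± 0.16 (SE, adjusted p = 7e-09). Eucgr.A02964, described as 3-O-glucosyltransferase 2, had 1.86, and the 5,3-O-glucosyltransferase Eucgr.B03858 1.73. Cutin, wax and lipid transfer genes leaned the other way, with 24 more negative and 9 more positive of 59, and 11 more positive and 26 more negative, median −0.18 with length taken out. With length and level taken out they gave 13 more positive and 18 more negative, median −0.04. Their median was −0.27 after scaling and −0.02 without it. Lipid-transfer protein 4 (Eucgr.L01908), of a family that carries cuticle lipids, rose in the diploid alone and went from 2.59 ± 1.21 to 25.6 ± 1.79 in the diploid and from 3.25 ± 0.622 to 3.19 ± 0.811 in the triploid, with −2.97 ± 0.40 (SE, adjusted p = 8.1e-06). Lipid-transfer protein 4.1 (Eucgr.B02633) had −2.02. Fatty acyl-CoA reductase 3 (Eucgr.J00479), a wax enzyme, fell less in the triploid, with 2.44 ± 0.19 (SE, adjusted p = 7.9e-09). Terpene synthases gave 9 more positive and 6 more negative of 22 by limma, and 4 and 6 of 30 by edgeR. Genes described as germacrene D synthase went both ways, at −2.29 (Eucgr.E03115), −1.89 (Eucgr.L03307) and 2.01 (Eucgr.K03518).

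Hormone lists differed in how they stood beside the background of 22.5% more positive and 24.5% more negative. Auxin response and transport gave 10 more positive and 14 more negative of 58 (17.2% and 24.1%), and gibberellin 4 and 5 of 18 (22.2% and 27.8%). Cytokinin signalling and turnover gave 13 and 9 of 37 (35.1% and 24.3%), with a median of 0.26. With length taken out the cytokinin list gave 11 more positive and 10 more negative, median 0.21. SAUR71 (Eucgr.F01470) and the auxin-induced X15 (Eucgr.F00604), small early auxin genes, had −1.81 and −1.79, and the efflux carrier component 5 (Eucgr.B01405) had −1.58. Histidine kinase 4 (Eucgr.B02664), a cytokinin receptor, fell in the diploid alone and went from 11.6 ± 4.17 to 2.31 ± 0.232 in the diploid and from 16.3 ± 1.81 to 14.7 ± 0.629 in the triploid, with 1.74 ± 0.23 (SE, adjusted p = 7.6e-06). The response regulators ARR9 (Eucgr.G03236) and ARR17 (Eucgr.F03797), which damp the cytokinin signal, had 1.29 and −1.31. Gibberellin-regulated protein 9 (Eucgr.F02616) rose in both and went from 14.2 ± 4.77 to 325 ± 21.8 in the diploid and from 18.2 ± 0.876 to 93.5 ± 17.1 in the triploid, with −2.18 ± 0.31 (SE, adjusted p = 1.3e-05). Gibberellin-regulated protein 1 (Eucgr.B03366) fell in both plants, with −1.62 (adjusted p = 0.019), −1.44 without diploid young library 3 and −1.37 without triploid mature library 2, where the call was lost. The receptor GID1C (Eucgr.B02030) had 1.09 (adjusted p = 0.04), and the call was kept in 2 of the 12 fits that left out 1 library.

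Other transcription factor lists were split between more positive and more negative: ERF and DREB 13 and 15 of 66, NAC 15 and 14 of 57, and MYB 17 and 21 of 67. The shares among all genes were 22.5% and 24.5%. ERF3 (Eucgr.F03499), a repressor of the ethylene response, went from 37.3 ± 9.31 to 214 ± 19.5 in the diploid and from 45.4 ± 1.01 to 56.2 ± 6.61 in the triploid, with −2.22 ± 0.33 (SE, adjusted p = 2.2e-05). ERF109-like (Eucgr.G01444) had −2.72 and ERF1B (Eucgr.K03266), which joins ethylene and jasmonate signals, 1.82. NAC37 (Eucgr.I02366), of the group that starts vessel formation in Arabidopsis, had −1.29. Myb4 (Eucgr.H03057), of a family of phenylpropanoid repressors, went from 1.37 ± 0.246 to 1.84 ± 0.00905 in the diploid and from 1.24 ± 0.624 to 15.7 ± 1.56 in the triploid, with 2.66 ± 0.28 (SE, adjusted p = 4.4e-07). Zm38 (Eucgr.F03176) had 2.41 and MYB59 (Eucgr.B02401) −2.34.

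The 36 tested EgrGLK genes, the family named for Golden 2-Like regulators of chloroplasts, split into 9 more positive and 9 more negative, with a median of 0.10. These shares of 25% each lay near the 22.5% and 24.5% of all genes. The myb-related protein 1 gene (Eucgr.A02082) had 0.771, 0.986 and 0.78 in diploid young leaves, 55.2, 56.2 and 68.2 in diploid mature leaves, 1.57, 1.26 and 0.953 in triploid young leaves and 28.3, 28.9 and 28.8 in triploid mature leaves scaled FPKM. It rose in both plants, diploid mature leaves lay above triploid ones, and the interaction was −1.32 ± 0.19 (SE, adjusted p = 1.6e-05). EFM (Eucgr.J00182), a flowering repressor in Arabidopsis, went from 0.87 ± 0.205 to 24.9 ± 3.63 in the diploid and from 0.764 ± 0.212 to 7.62 ± 0.795 in the triploid, with −1.49 ± 0.21 (SE, adjusted p = 9.8e-06). The clock and light signalling list gave 15 more positive and 6 more negative of 39, and 8 more positive and 9 more negative, median 0.12 with length taken out. EARLY FLOWERING 4 (Eucgr.J00211), of the evening complex, went from 3.74 ± 1.08 to 38.6 ± 3.88 in the diploid and from 3.33 ± 0.222 to 7.37 ± 0.651 in the triploid, with −2.14 ± 0.26 (SE, adjusted p = 2.1e-06), and its neighbour Eucgr.J00214 had −1.81. GIGANTEA (Eucgr.F02686), a clock gene of 4571 bases, rose in the triploid alone, with 1.57, and 0.81 with length taken out. The hour of harvest is not given in the sources used here.

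Autophagy and nitrogen remobilisation gave 19 more positive and 11 more negative of 55 (34.5% and 20%), with a median of 0.15. Of these 12 and 3 reached 1 on the log2 scale. The shares of all genes were 22.5% and 24.5%, and 6.36% and 11.5% for differences of at least 1. A cysteine proteinase described as low-temperature-induced (Eucgr.E02751) and another, COT44 (Eucgr.H02220), fell less in the triploid, with 2.0 and 1.93. SENESCENCE-ASSOCIATED GENE 21 (Eucgr.H01103), a stress protein of mitochondria, went from 26.5 ± 7.24 to 474 ± 16.4 in the diploid and from 47 ± 3.6 to 158 ± 19 in the triploid, with −2.42 ± 0.31 (SE, adjusted p = 5.3e-06). Starch and sucrose metabolism gave 17 and 11 of 52, and 10 more positive and 17 more negative, median 0.01 with length taken out. The soluble invertase Eucgr.A02888, which splits sucrose, fell further in the triploid, with −1.59, while the sucrose carrier SUC6 (Eucgr.F04144) and invertase B (Eucgr.F01661) rose less, with −1.43 and −1.42. Heat shock proteins and factors gave 9 and 17 of 53, with a median of −0.21 after scaling and 0.02 without it, and 6 more positive and 18 more negative, median −0.38 with length taken out. The 21.7 kDa heat shock protein (Eucgr.F00998) went from 7.33 ± 1.53 to 82.6 ± 11.6 in the diploid and from 8.06 ± 0.504 to 23.2 ± 1.58 in the triploid, with −1.92 ± 0.21 (SE, adjusted p = 5.3e-07). The 18.1 kDa protein (Eucgr.K03016) had −1.60 and the factor HSF30 (Eucgr.C03434) −1.62.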

How the data were processed

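RNA sequencing of *E. urophylla* leaves was analysed as deposited. The labels name poly(A) selection and the methods a stranded total RNA kit; whether strand was used in counting is not given in the sources used here. The submitters' processing notes list HISAT2 2.0, StringTie 1.3.0 and Bowtie 0.12.2. They list a mouse build too, although identifiers have the Eucgr form used for *E. grandis*. Coordinates are those of the table. The deposited FPKM values and read counts cover 26033 genes, as the authors computed them. Another 2 columns of counts matched no library by name and stayed out. FPKM of 0.0001 or less counted as 0. Each library was divided by its median ratio over the 11530 genes with at least 1 FPKM in every library, and the 19174 genes whose mean reached 0.5 FPKM were tested. limma 3.58.1 with a variance trend was fitted to log2(FPKM + 1) with 8 group means, with Benjamini-Hochberg adjustment and a threshold of 0.05. edgeR 4.0.16 (quasi-likelihood, TMM, 22699 genes) and DESeq2 1.42.0 (23213 genes) were run on counts of the 22 libraries that have them. R 4.3.3 and Python 3.11.15 were used, and the fits were tested on simulated data. Trends on length were taken out per library by lowess, and on length and level by a smooth surface (mgcv). Other alternatives left out libraries or changed the pseudocount, filter, weights or block.

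The members and the 31 gene lists, drawn from the descriptions in the table, were chosen with earlier results of these data known, and list patterns were trimmed by description. Named genes had an informative description (13186 genes), at least 5 scaled FPKM in a group, and a call with the same sign by limma and edgeR. From these were taken the 5 largest interactions in each opposite class, 3 in each class with changes of the same direction, 2 in each class with a change in 1 plant, and up to 3 of each list. Members that failed, or that carry a role described, are named with their values. The other WRKY factors, laccase-9, IRX15, NAC43, cellulose synthase A 4 and A 7, the further copies of Calvin cycle enzymes, PIP1-2, PIP2-7, TIP4-3, FAMA and PHLOEM PROTEIN 2-LIKE A1 were chosen after their values were seen. So were the further copies of protochlorophyllide reductase, CP24, PIP1-3 and PIP1-2, the ChlH and ChlD genes and the TCP4 genes. Sequences were not used here.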

Additional observations from a re-analysis of the deposited data

Results flagged for a closer look

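The interaction test found a different course of maturation in the 2 plants for 9015 genes, among them 499 that rose in the triploid and fell in the diploid and 529 with the reverse course. Among named genes of the former course, the log2 interaction was 2.81 for probable glutathione S-transferase parC (Eucgr.B02780), 2.74 for peroxidase 51 (Eucgr.J02352), 2.65 for protein DOWNY MILDEW RESISTANCE 6 (Eucgr.K00040), 2.63 for endo-1,3;1,4-beta-D-glucanase (Eucgr.B01155) and 2.50 for hevamine-A (Eucgr.K00311). Among those of the latter course it was −3.95 for transcription repressor OFP17 (Eucgr.J01842), −3.33 for WEB family protein At3g51220 (Eucgr.I02753), −3.16 for TUA1-like protein (Eucgr.F02183), −2.99 for E3 ubiquitin-protein ligase RDUF1 (Eucgr.G02496) and −2.95 for the lysosomal thiol reductase (Eucgr.A00606). The call held in each of the 12 fits that left out 1 library for all 10 genes. Groups of 3 libraries are too small for a test of single outlying libraries.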

How the results depend on the processing

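Of 3020 values for 126 genes under alternatives, 2985 kept their direction and side of the threshold, 33 kept their direction and lost the call, and 2 turned. Those were NAC43 (Eucgr.E01053, 0.02 by edgeR) and histone H4 (Eucgr.J01149, 0.07 with length and level taken out). The call held without each library in turn for 124 genes. With 1 library left out, calls ranged from 7846 (without diploid young leaf library 3) to 9759 (without library 1), with 3650 to 4772 more positive and 4196 to 4987 more negative. Of these 934 to 1646 and 1884 to 2504 reached 1 on the log2 scale, and opposite changes numbered 329 to 759 (rise in the triploid) and 388 to 728 (fall in the triploid). Calls of the change itself ranged from 12495 to 13510 in the triploid and from 12667 to 13550 in the diploid. Over the other alternatives calls ranged from 7376 (length and level taken out) to 12578 (array weights). Unscaled values gave 9805 calls, 6687 more positive and 3118 more negative, 2426 and 1345 of at least 1, and 265 genes that fell in the triploid and rose in the diploid. Calls of at least 1 that were more positive numbered 1902 with a pseudocount of 0.1, 2228 by edgeR and 2020 by DESeq2. Array weights, whose estimate stopped before it converged, gave 1099 and 1069 opposite changes. Genes that rose in the triploid and fell in the diploid numbered 266 with length taken out and 314 with length and level taken out, which also left 302 of the reverse course and 1247 more negative calls of at least 1. The causes of these moves were not tested. With replicate number as a replicate block, 8927 genes were called. The numbers did not pair the libraries: over 18 pairs of equal number the correlation of deviations ran from −0.31 to 0.172, and 9 matched best by number. GC content was not checked, and length stands for the gene model, not for the molecules sequenced.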
